A study of Mus musculus with 18 samples.

Results

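The proteasome genes described here were the 45 protein-coding genes of the deposited count table, out of 54838 rows in all, whose GENCODE symbol begins with Psma, Psmb, Psmc, Psmd or Psme followed by a digit. They were chosen by name and not by their values. Psmb8, Psmb9, Psmb10, Psme1 and Psme2 formed the immunoproteasome group of 5 genes, and the other 40 were set beside them. A filter on low counts left 42 of the 45 for testing. Psmd10, which encodes the assembly chaperone gankyrin, and Psme2b had no count in any of the 18 libraries. Psmb11, the catalytic subunit of cortical epithelium in the thymus, had 13 counts over all libraries. Of the 42 genes tested, Psma8, a testis subunit, had 167 counts in all, and Psmc3ip had 214. Psmc3ip matched by its name alone, since its product acts in meiotic recombination and is no proteasome subunit.

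The proteasome is the barrel-shaped protease that degrades ubiquitin-tagged proteins in the cytosol and nucleus. Its core particle has outer rings of alpha subunits and inner rings of beta subunits, and the catalytic sites sit on Psmb5, Psmb6 and Psmb7. The regulatory particle caps the core: a base with ATPases (Psmc genes) unfolds the substrate, and a lid (most Psmd genes) removes ubiquitin. In immune cells and after interferon, Psmb8, Psmb9 and Psmb10 take the places of Psmb5, Psmb6 and Psmb7 in newly built cores, and Psme1 and Psme2 form the activator PA28. The immunoproteasome is best known for cutting peptides that MHC class I molecules present.

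Total and polysome-bound RNA of C57BL/6 wild-type mice was sequenced from 3 kinds of cells, with 3 libraries in each of 6 groups. LY6G cells and LY6C cells were myeloid-derived suppressor cells grown from bone marrow for 5 days and then sorted: LY6G cells as CD11b-high, Ly6G-high and Ly6C-intermediate, and LY6C cells as CD11b-high, Ly6G-negative and Ly6C-high. They were plated and harvested 1 day later after cycloheximide, a drug that freezes ribosomes along mRNA, so culture, the sort and plating set both kinds apart from marrow and cannot be told apart from the kind of cell. Fresh bone marrow, the reference tissue, was flushed from femurs of 3 mice after which red cells were lysed. Polysomal RNA came from the heavy fractions of a sucrose gradient, and ribosomal RNA was depleted during library preparation. Below, values of 1 sorted group are given in the order of libraries 2, 3 and 6, and values of marrow in the order of libraries 1, 2 and 3.

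The libraries differed widely in the depth that reached these genes. Sorted cells had 8559897 to 21138649 counts per library and 37.3% to 94.6% of them fell in nuclear protein-coding genes other than Lars2, which collects reads like those of ribosomal RNA. Marrow polysomal libraries had 12107504 to 17846803 counts with 1.82% to 3.71% in such genes, and marrow total RNA libraries had 19776431 to 26225431 with 0.232% to 0.291%. The median proteasome gene therefore had 327.5 to 1983.5 counts in a sorted library, 22.5 to 51 in a marrow polysomal library and 3 to 4.5 in a marrow total library. Summed markers separated the tissues: 8 myeloid genes gave 788 to 2708 CPM (counts scaled for library size) in sorted libraries against 76.2 to 178 CPM in marrow, and erythroid genes gave 0.0951 to 7.55 CPM in sorted libraries against 507 to 1231 CPM in marrow. B cell markers summed to 0.183 to 6.46 CPM in sorted libraries and 55.0 to 93.8 CPM in marrow, and stromal and endothelial markers to 3.85 to 11.3 CPM in sorted libraries and 2000 to 6858 CPM in marrow. Lyz2 gave the largest single part of the myeloid sum in every sorted library, and not every gene of that list rose. Ly6g RNA did not separate the 2 sorted kinds, with 1.91, 1.43 and 11.7 CPM in LY6G polysomal libraries and 1.85, 4.27 and 3.13 CPM in LY6C polysomal libraries. Marrow polysomal libraries had 9.70, 4.63 and 5.97 CPM of Ly6g, above every sorted polysomal library but LY6G library 6. Ly6c1 reached at most 0.626 CPM in sorted polysomal libraries, against 0.571, 3.47 and 0.351 CPM in marrow. Ly6c2 gave 71.4, 84.3 and 123 CPM in LY6G polysomal libraries and 95.8, 137 and 617 CPM in LY6C polysomal libraries. The sorted libraries numbered 6 stood apart in the immunoproteasome genes, and values without them are given beside the calls that were lost when they were left out. In bulk RNA, fewer cells of a type and less RNA per cell cannot be told apart.

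Promoter sequence of the genes on which the comparison of constitutive and immune subunits turns is shown first, because motifs of interferon signalling and of the stress response mark the regulation these genes are known for. RefSeq windows of 300 bases (250 before and 50 after the start, GRCm38.p6) were matched for 38 of the 45 genes. Each stretch below is read 5′ to 3′ on the strand of the gene, and capitals mark a motif match. The stretches of Psmb5 (chr14:54618023-54618122, minus strand), Psmb6 (chr11:70525257-70525356, plus strand), Psmb10 (chr8:105938445-105938544, minus strand) and Psme2 (chr14:55591114-55591213, minus strand) lie upstream of the start. Shorter stretches are given around the match in Psmb8 (chr17:34198088-34198116, plus strand) and in Psme1 (chr14:55578493-55578522, plus strand). Both matches lie in annotated exon sequence, at -97 to -89 from the start in Psmb8 and, after the start, at 9 to 18 in Psme1.
Psmb5: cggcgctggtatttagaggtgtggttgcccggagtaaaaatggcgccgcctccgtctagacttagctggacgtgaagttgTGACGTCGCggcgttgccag
Psmb6: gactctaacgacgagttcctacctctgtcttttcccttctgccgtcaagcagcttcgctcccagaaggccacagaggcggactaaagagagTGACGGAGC
Psmb10: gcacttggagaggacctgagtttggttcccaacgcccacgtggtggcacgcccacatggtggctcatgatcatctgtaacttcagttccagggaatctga
Psme2: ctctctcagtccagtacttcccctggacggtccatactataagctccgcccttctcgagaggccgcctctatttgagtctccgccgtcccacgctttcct
Psmb8: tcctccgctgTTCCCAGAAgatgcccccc
Psme1: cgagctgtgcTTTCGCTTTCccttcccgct

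Motifs were searched on both strands. The antioxidant response element, TGACNNNGC, matched in 6 of 38 windows (Psmb5, Psmb6, Psmc6, Psmd12, Psmd9 and Psme4) and in 12.4% of 32851 windows of all genes. The gamma-interferon activation site, TTCNNNGAA, matched in 2 (Psmb8 and Psmd2), against 8.3% of all windows. The interferon-stimulated response element, searched as 2 runs of GAAA that are 2 bases apart, matched in 4 (Psmb3, Psmd4, Psmd9 and Psme1), against 3.44% of all windows; in Psme1 the match lies on the other strand. A match is a description of letters and not a bound site, and a window with no match says nothing of the factor.

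Levels per kilobase of the principal transcript placed the same structural subunit high in most groups. Psmb4, a structural beta subunit, was the highest of all proteasome genes in LY6G polysomal RNA at 38.2 CPM per kb, in LY6C polysomal RNA at 53.6 and in marrow polysomal RNA at 80.1. Among the immune subunits Psme2 ranked 2 in LY6G polysomal RNA, 3 in LY6C polysomal RNA and 15 in marrow polysomal RNA, and Psmb8 ranked 12, 14 and 36 in the same groups. Psmb10 ranked 13, 4 and 11 in these groups, with 14.6, 17.1 and 95.3 CPM per kb in the LY6C polysomal libraries. Psmb5, the chymotrypsin-like constitutive site, ranked 8 in LY6G, 2 in LY6C and 2 in marrow polysomal RNA. Ranks within 1 group were set by means of 3 libraries, and neighbouring places often lay within the spread: Psme2 averaged 42.9 CPM per kb and Psmb10 42.3 CPM per kb in LY6C polysomal RNA.

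**Figure D1:**
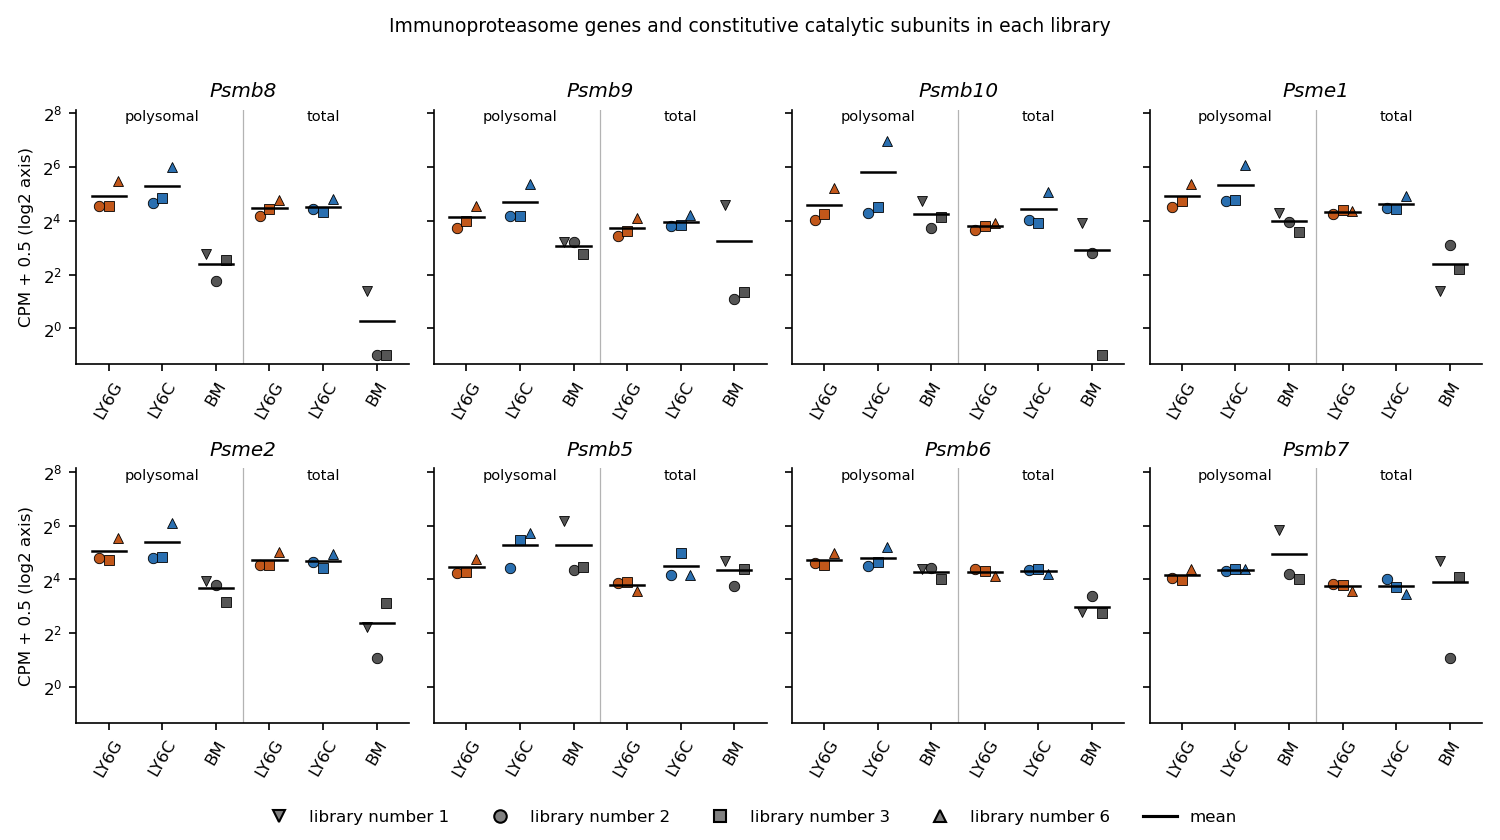
Levels of the 5 immunoproteasome genes and the constitutive catalytic subunits in each library, as CPM + 0.5 on a log2 axis, with sorted cells left of marrow (BM) and polysomal left of total RNA; points are libraries, shaped by library number, and bars are means of 3. Psmb8 lies between 22.8 and 63.1 CPM in sorted polysomal libraries and between 2.89 and 6.28 CPM in marrow polysomal libraries.

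The comparison of sorted cells with marrow asks how proteasome mRNA in cultured suppressor cells compares with that of the tissue they came from. The genes higher in LY6G and in LY6C than in marrow, in polysomal and in total RNA, came from several parts of the particle, and the 2 kinds share their marrow libraries: Psma3 and Psma6 of the alpha ring, the immune subunit Psmb8, the base subunit Psmd2, the lid subunit Psmd8, the assembly chaperone Psmd5, PA28 beta (Psme2) and the nuclear activator Psme4. Genes of the lower group were few and included the chaperone Psmd9 and the lid subunit Psmd11. Constitutive catalytic subunits passed edgeR's test in neither direction in polysomal RNA, though DESeq2 called Psmb6 in both kinds.

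Of the 42 genes tested, 11 were higher and 4 lower in LY6G than in marrow polysomal RNA (edgeR quasi-likelihood test, adjusted p under 0.05). Over all 14181 genes tested the shares were 22.1% higher and 15.3% lower, and among protein-coding genes with a mean of at least 10 CPM 34.4% were higher, so the proteasome genes' share lay between these backgrounds. In LY6C against marrow polysomal RNA, 17 were higher and 3 lower, or 40.5% higher beside 20.2% of all genes and 35.2% of the better expressed coding genes, and 11.2% of all genes were lower. The median log2 difference over the 42 genes was 0.34 for LY6G and 0.80 for LY6C, beside 0.45 and 0.52 over all genes tested. Leaving out the libraries numbered 6 gave 10 higher and 7 lower for LY6G and 12 higher and 3 lower for LY6C. Median-ratio scaling gave 15 higher and 2 lower for LY6G, and scaling on coding genes alone gave 10 higher and 7 lower.

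**Figure D2:**
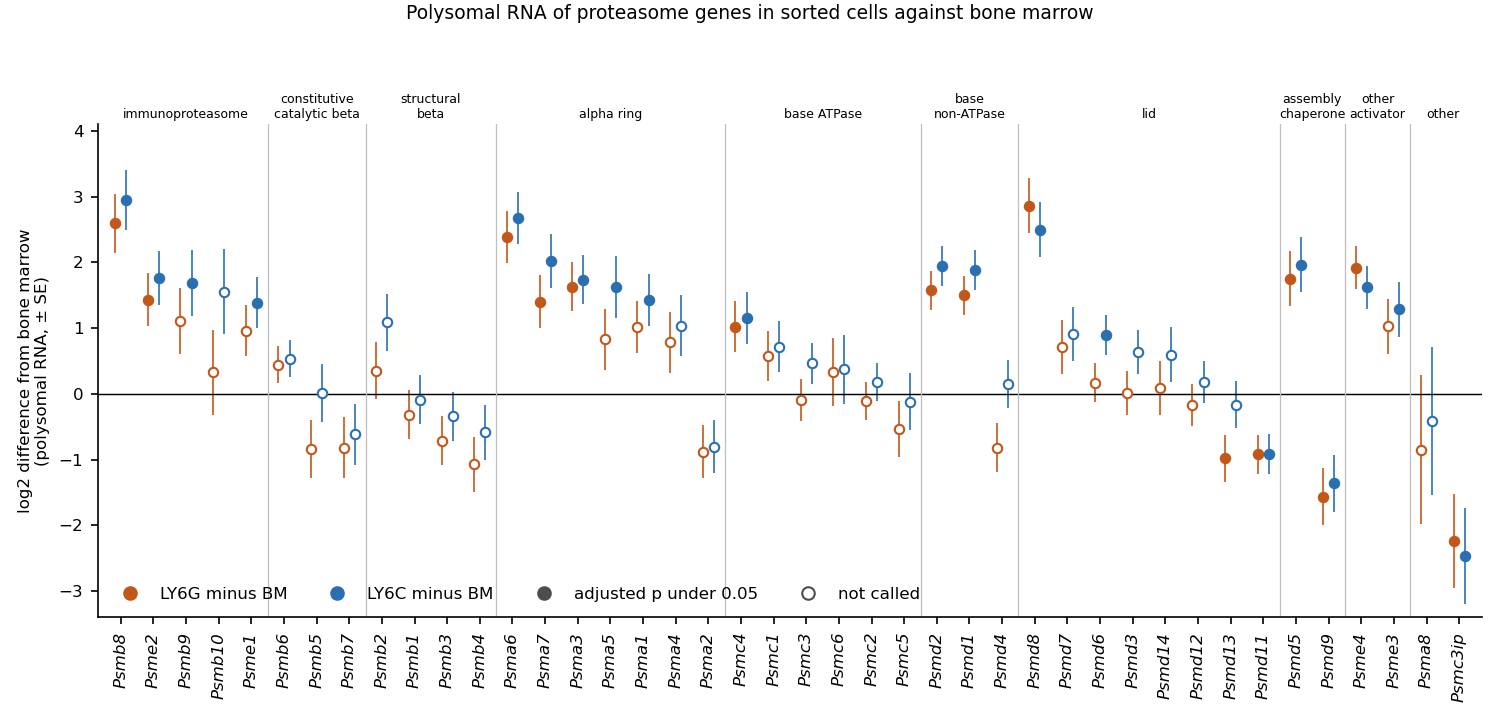
Log2 differences of the 42 tested proteasome genes in polysomal RNA, LY6G minus marrow and LY6C minus marrow, grouped by role; points are estimates, filled where called, and bars their approximate standard error. Psmb8, Psma6 and Psmd8 stand highest in both kinds, and Psmd9 and Psmc3ip lowest.

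The alpha ring, which forms the gate of the core, held 3 higher genes of 7 in LY6G and 5 of 7 in LY6C polysomal RNA. Psma6 had 23.9, 25 and 26.6 CPM in LY6G and 28.6, 27.8 and 36.2 CPM in LY6C polysomal libraries, against 7.13, 4.63 and 2.46 CPM in marrow. No sorted library overlapped a marrow one, and the log2 difference was 2.39 ± 0.39 (SE) for LY6G (adjusted p = 9.56e-05) and 2.68 ± 0.39 for LY6C (adjusted p = 4.04e-05). Psma7 had 22.5, 21.7 and 28.4 CPM in LY6G and 25.8, 28.1 and 58.0 CPM in LY6C polysomal libraries, against 12.3, 9.83 and 5.27 CPM in marrow, with log2 differences of 1.40 ± 0.41 and 2.03 ± 0.41. Without marrow polysomal library 3 the LY6G difference of Psma7 was 1.15 with an adjusted p of 0.058. Psma3 had 17.4, 16.8 and 14.0 CPM in LY6G and 16.8, 16.6 and 18.5 CPM in LY6C libraries, against 8.27, 4.05 and 2.81 CPM in marrow, and its differences were 1.63 ± 0.37 and 1.73 ± 0.37. Psma1 and Psma5 were higher in LY6C, by 1.43 ± 0.40 and 1.63 ± 0.47. Psma1 lost its call without marrow polysomal library 2 (1.11, adjusted p = 0.0638) or 3 (1.23, adjusted p = 0.0625). Psma5 lost it without LY6C polysomal library 6 (1.03, adjusted p = 0.0884), without all libraries numbered 6 (0.84, adjusted p = 0.146), without marrow library 1 or 3, and with the replicate block on the compared libraries. Psma4 passed in neither kind, though DESeq2 called it in both. Psma2 had its highest value in marrow polysomal library 1, at 65.9 CPM beside 23.7 and 21.8 CPM in the other 2 marrow libraries, and 19.3 to 22.8 CPM in sorted polysomal libraries.

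None of the 4 structural beta genes, Psmb1 to Psmb4, passed edgeR's test in polysomal RNA; without the libraries numbered 6, Psmb3 and Psmb4 were called lower in LY6G, and DESeq2 called Psmb2 higher in LY6C. Psmb4 had 43.2, 45.4 and 47.0 CPM in LY6G and 46.0, 71.5 and 72.8 CPM in LY6C libraries, against 161, 57.2 and 66.1 CPM in marrow. The groups overlapped for LY6C and marrow, and marrow library 1 was the highest of all.

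In the base of the regulatory particle, 2 of the 3 genes outside the ATPases were higher in each kind. Psmd2, a scaffold of the base, had 69.8, 83.9 and 97.7 CPM in LY6G and 84.5, 127 and 114 CPM in LY6C polysomal libraries, against 31.9, 20.8 and 31.3 CPM in marrow. The log2 difference was 1.57 ± 0.30 for LY6G (adjusted p = 0.00041) and 1.94 ± 0.30 for LY6C (adjusted p = 7.23e-05). Its partner Psmd1 had 27.9, 32 and 32.9 CPM in LY6G and 29.6, 42.7 and 48.6 CPM in LY6C, against 12.3, 9.83 and 10.5 CPM in marrow, and differed by 1.5 ± 0.30 and 1.88 ± 0.30. Of the 6 ATPases, Psmc4 alone passed the test, at 1.02 ± 0.39 in LY6G (adjusted p = 0.0467) and 1.16 ± 0.40 in LY6C (adjusted p = 0.0304), and it lost its call in 10 and 8 of 15 alternatives.

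Of the 8 lid genes, 1 was higher and 2 were lower in LY6G, and 2 were higher and 1 was lower in LY6C. Psmd8 had 15.2, 15.2 and 14.7 CPM in LY6G and 11.8, 10.4 and 12.8 CPM in LY6C polysomal libraries, against 2.85, 1.73 and 1.41 CPM in marrow, and differed by 2.86 ± 0.42 (adjusted p = 2.76e-05) and 2.5 ± 0.42 (adjusted p = 0.000145). Psmd11, which helps hold the lid to the base, had 19.8, 21.2 and 24.2 CPM in LY6G and 20.1, 23 and 22.4 CPM in LY6C, against 51.9, 33.5 and 37.6 CPM in marrow; both differences were -0.92 ± 0.30. Leaving out marrow library 1 brought Psmd11 to -0.71 and -0.77, with adjusted p of 0.10 and 0.089. The other gene higher in LY6C was Psmd6, at 0.89 ± 0.30 (adjusted p = 0.0303), a call it lost in 11 of 15 alternatives; it gave 0.55 (adjusted p = 0.264) without the libraries numbered 6. Psmd3, Psmd7, Psmd12 and the deubiquitinase Psmd14 passed edgeR's test in neither kind. Psmd13 was lower in LY6G at -0.98 ± 0.36 (adjusted p = 0.0351), a call it lost in 8 of 15 alternatives. Among the chaperones that help assemble the base, Psmd5 and Psmd9 moved in opposite directions. Psmd5 had 13.5, 14.4 and 13.8 CPM in LY6G and 13.9, 19.6 and 14.6 CPM in LY6C, against 6.28, 0.578 and 4.57 CPM in marrow, and was higher by 1.75 ± 0.42 and 1.96 ± 0.42. Psmd9 had 4.16, 4.67 and 5.79 CPM in LY6G and 3.78, 7.16 and 5.93 CPM in LY6C, against 8.56, 14.5 and 20.4 CPM in marrow, and was lower, with differences of -1.56 ± 0.43 and -1.36 ± 0.43. Without marrow library 3 neither Psmd9 call held (-1.18, adjusted p = 0.061 and -1.06, adjusted p = 0.11).

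Psme4, which caps the core in place of PA28, had 30.4, 31.2 and 40.0 CPM in LY6G and 29.6, 25.1 and 27.6 CPM in LY6C polysomal libraries, against 6.56, 7.52 and 12.7 CPM in marrow. It was higher by 1.92 ± 0.32 (adjusted p = 0.000117) and 1.62 ± 0.32 (adjusted p = 0.000703), and by 1.85 ± 0.38 in total RNA of each kind. Psme3, the nuclear PA28 gamma, had 22.2, 24.3 and 20.5 CPM in LY6G and 31.4, 30.6 and 18 CPM in LY6C polysomal RNA, against 11.7, 11.0 and 10.2 CPM in marrow. Its difference was 1.03 ± 0.42 for LY6G (adjusted p = 0.0585) and 1.28 ± 0.42 for LY6C (adjusted p = 0.0238). The LY6C call of Psme3 was lost in 6 of 15 alternatives, and the LY6G difference gained a call in 6 of 15, DESeq2 among them.

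The immunoproteasome genes set against the constitutive ones are given next. Psmb8, the immune counterpart of Psmb5, was higher in both sorted kinds by call in both fractions. In polysomal RNA it had 22.8, 23.2 and 44.1 CPM in LY6G and 24.5, 28.2 and 63.1 CPM in LY6C libraries, against 6.28, 2.89 and 5.27 CPM in marrow. The differences were 2.59 ± 0.45 (adjusted p = 0.000171) for LY6G and 2.95 ± 0.46 (adjusted p = 6.53e-05) for LY6C, and they held in every alternative. Psmb8 and its antisense neighbour Gm20496 share exon sequence on opposite strands, and whether counting used the strand was not stated.

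The PA28 genes form a ring-shaped cap that opens the gate of the core. Psme2 had 27.1, 25.8 and 45.7 CPM in LY6G and 27.4, 28.3 and 68.2 CPM in LY6C libraries, against 14.8, 13.3 and 8.43 CPM in marrow, and was higher by 1.43 ± 0.40 (adjusted p = 0.00875) and 1.76 ± 0.41 (adjusted p = 0.0026). Psme1 had 22.3, 26.1 and 40.9 CPM in LY6G and 26.1, 26.5 and 67.4 CPM in LY6C, against 19.1, 15.0 and 11.6 CPM in marrow. Every sorted library lay above every marrow one, and the difference was 0.96 ± 0.39 for LY6G (adjusted p = 0.0567) and 1.39 ± 0.39 for LY6C (adjusted p = 0.0103). Without LY6C polysomal library 6 the LY6C difference of Psme1 was 0.81 (adjusted p = 0.09), and without marrow library 3 it was 1.17 (adjusted p = 0.066).

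By edgeR, Psmb9 was called in LY6C and Psmb10 in neither kind; DESeq2 also called Psmb9 in LY6G (1.33, adjusted p = 0.0143) and Psmb10 in LY6C (1.62, adjusted p = 0.0374). No difference between LY6G and LY6C was called for either. Psmb9 had 12.9, 15.3 and 23.1 CPM in LY6G and 17.6, 17.8 and 41.1 CPM in LY6C polysomal libraries, against 8.84, 8.67 and 6.32 CPM in marrow. Its difference was 1.11 ± 0.50 for LY6G (adjusted p = 0.0869) and 1.68 ± 0.50 for LY6C (adjusted p = 0.0151). The LY6C call was lost without LY6C library 6 (1.19, adjusted p = 0.081), without marrow library 3 (1.49, adjusted p = 0.078) and without all libraries numbered 6 (1.00, adjusted p = 0.12). Psmb10 had 15.7, 18.5 and 36.7 CPM in LY6G and 19.1, 22.4 and 125 CPM in LY6C, against 26.0, 12.7 and 17.2 CPM in marrow, so that libraries 2 and 3 of both kinds lay within the marrow range and library 6 above it. Its difference was 0.33 ± 0.64 for LY6G (adjusted p = 0.704) and 1.56 ± 0.65 for LY6C (adjusted p = 0.0779), and it was -0.26 and -0.022 without the libraries numbered 6.

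The 5 genes had a median difference of 1.11 in LY6G and 1.68 in LY6C polysomal RNA, beside 0.17 and 0.59 over the 37 other genes tested. By edgeR's call, 2 of 5 were higher in LY6G (Psmb8 and Psme2), beside 22.1% of all genes, and 4 of 5 in LY6C, beside 20.2%. Without the libraries numbered 6 the medians were 0.72 in LY6G and 1.00 in LY6C, and Psmb8 and Psme2 were the 2 genes called in each kind; Psme1 then gave 0.63 in LY6C (adjusted p = 0.188). DESeq2 called 4 of 5 in LY6G and 5 of 5 in LY6C. The shares of all genes above are edgeR's, and DESeq2's own share is not given here. Its counts therefore cannot be read as a result about the immune genes. DESeq2 called more genes than edgeR in most other lists too. It called 6 of 7 alpha ring genes as higher in each kind, beside 3 and 5 by edgeR. Of 22 class I presentation genes it called 12 higher in LY6G and 17 in LY6C, beside 6 and 12 by edgeR. The share of the 5 immunoproteasome genes in the summed CPM of all proteasome genes was 12.9%, 13.0% and 18.7% in LY6G polysomal libraries. It was 13.1%, 11.1% and 23.7% in LY6C polysomal libraries, against 7.24%, 8.61% and 8.22% in marrow polysomal libraries. In each polysomal library of sorted cells that share lay above every marrow one.

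The constitutive catalytic subunits gave no edgeR call in polysomal RNA, where DESeq2 called Psmb6 in LY6G (0.67, adjusted p = 0.0196) and in LY6C (0.59, adjusted p = 0.0478). Psmb6 had 23.7, 22.5 and 31.3 CPM in LY6G and 22.1, 24.7 and 36 CPM in LY6C polysomal libraries, against 20.5, 20.8 and 15.8 CPM in marrow (0.44 ± 0.28, adjusted p = 0.225; 0.54 ± 0.28, adjusted p = 0.158). Psmb5 had 18.5, 19.1 and 26.6 CPM in LY6G and 21, 43.2 and 52.2 CPM in LY6C, against 72.5, 19.7 and 21.8 CPM in marrow. Psmb7 had 16.3, 15.3 and 20.5 CPM in LY6G and 19.4, 20.3 and 20.3 CPM in LY6C, against 57.3, 17.9 and 15.8 CPM in marrow. Both had their high value in marrow library 1, and the LY6G differences of -0.84 ± 0.44 for Psmb5 (adjusted p = 0.137) and -0.82 ± 0.46 for Psmb7 (adjusted p = 0.168) turned to 0.051 and 0.052 without it. Psmb7 also shares exon sequence with Nek6 on the opposite strand.

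Ratios within a library do not depend on library size. Per kilobase of the principal transcript, the Psmb8 to Psmb5 ratio was 0.680, 0.673 and 0.916 in LY6G and 0.645, 0.361 and 0.668 in LY6C polysomal libraries, against 0.0478, 0.0812 and 0.134 in marrow polysomal libraries. Pooled over the libraries of a group it was 0.770 (95% exact binomial interval, 0.745 to 0.795) in LY6G, 0.556 (0.534 to 0.578) in LY6C and 0.0663 (0.0469 to 0.0914) in marrow. These intervals cover counting error only. The sorted libraries thus lay above every marrow library, including marrow library 1, where Psmb5 was high. The Psmb9 to Psmb6 ratio was 0.321, 0.402 and 0.435 in LY6G and 0.469, 0.424 and 0.674 in LY6C, against 0.254, 0.246 and 0.236 in marrow, again with no overlap. The Psmb10 to Psmb7 ratio was 0.852, 1.07 and 1.58 in LY6G and 0.875, 0.975 and 5.44 in LY6C, against 0.401, 0.628 and 0.963 in marrow, where the groups overlapped. With lengths of all exons joined, the Psmb8 to Psmb5 ratios were 0.328, 0.324 and 0.441 in LY6G and 0.310, 0.174 and 0.321 in LY6C, against 0.0230, 0.0391 and 0.0643 in marrow; another length changes every library's ratio by the same factor.

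**Figure D3:**
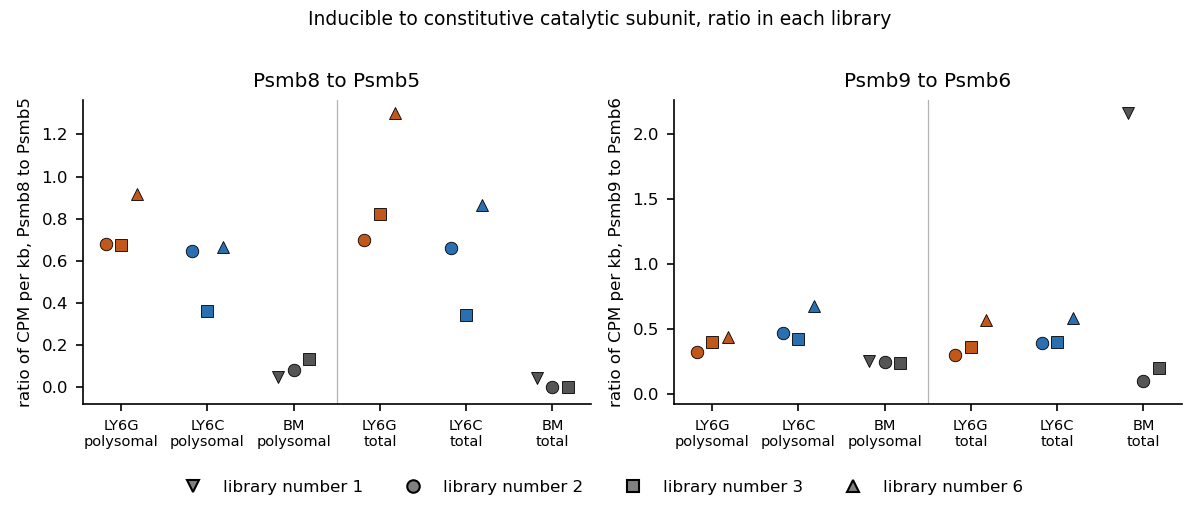
Ratios of Psmb8 to Psmb5 and of Psmb9 to Psmb6, per kilobase of principal transcript on a linear axis, in each library (points); sorted groups are left of marrow and polysomal left of total RNA. For Psmb8 to Psmb5 the sorted polysomal libraries lie between 0.361 and 0.916 and the marrow ones between 0.0478 and 0.134; the marrow total RNA library at 2.16 for Psmb9 to Psmb6 rests on 11 and 3 counts.

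In total RNA the marrow depth was far lower, with 228, 209 and 174 counts over all proteasome genes in marrow libraries 1, 2 and 3. Higher genes numbered 16 of 42 in LY6G, beside 21.5% of all genes, and 17 of 42 in LY6C, beside 20.5% of all genes; none was lower, beside 9.39% and 7.4% of all genes. Psmb8, Psme1 and Psme2 were higher in both kinds, as were Psmb6, the alpha genes Psma1, Psma3, Psma5 and Psma6, Psmb1, the ATPase Psmc1, and Psmd2, Psmd5, Psmd6, Psmd8, Psme3 and Psme4. Psmd1 was called in LY6C alone. Only 5 of the 16 LY6G calls and 3 of the 17 LY6C calls held in every alternative. Psmb1 lost its call in 11 of 15 alternatives for LY6G and 12 of 15 for LY6C. Psma1 lost it in 11 and 7, Psma5 in 10 and 4 and Psmd5 in 9 and 4. For Psmd1 it was lost in 9 of 15. Psmd1 reached at most 1.27 in any alternative, below the LY6C median of all genes given in the last paragraph for the analysis reported.

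Psmb8 had 17.8, 21.4 and 26.7 CPM in LY6G and 21, 19.5 and 27.2 CPM in LY6C total libraries, against 2.12, 0 and 0 CPM in marrow. That marrow value is 1 count, and the ratio of pooled levels was 34.0 (95% interval 6.10 to 1343) for LY6G and 34.2 (6.14 to 1352) for LY6C. Psma3 had no count in marrow total RNA, and against a floor of 3 counts over the group it was at least 7.91-fold higher in LY6G and at least 7.24-fold higher in LY6C. Psma6 also had 1 count in marrow total RNA, and its ratio was 28.5 (5.11 to 1126) for LY6G and 35.7 (6.40 to 1409) for LY6C. Psme2 had 23, 22.7 and 31.6 CPM in LY6G and 24.7, 21.2 and 30.1 CPM in LY6C, against 4.23, 1.64 and 8.26 CPM in marrow, and was higher by 2.51 ± 0.57 and 2.48 ± 0.57. Psmb6 had 20.3, 19.3 and 17.1 CPM in LY6G and 20.2, 20.3 and 18.1 CPM in LY6C, against 6.35, 9.82 and 6.20 CPM in marrow, and was higher by 1.32 ± 0.37 and 1.36 ± 0.37. The LY6C difference of Psmb6 lay below the median of all genes in that comparison, which is given in the last paragraph. Its calls were lost in 5 of 15 alternatives for LY6G and 6 of 15 for LY6C. Psmb9 overlapped, with 10.4, 11.7 and 16.5 CPM in LY6G and 13.5, 13.7 and 18 CPM in LY6C against 23.3, 1.64 and 2.07 CPM in marrow. The count of calls in total RNA was 10 for LY6G without LY6G total library 3 and 11 for LY6C without marrow total library 2.

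LY6G and LY6C cells did not differ by call in any proteasome gene in either fraction, with 0 of 42 called beside 0% of all genes tested. At an unadjusted p under 0.05, edgeR gave 0 of 42 in total RNA and 3 of 42 in polysomal RNA, and DESeq2 gave 0 calls with 2 and 3 at that unadjusted level. All genes tested gave 565 in total and 833 in polysomal RNA at the unadjusted level. The median over the 42 genes was -0.24 in total RNA (6 of 42 positive) and -0.36 in polysomal RNA (3 of 42 positive), while all genes tested had medians of 0.00 and -0.03. Median-ratio scaling moved the median of all genes to 0.15 and 0.13 and left the proteasome genes at -0.08 and -0.18. The median was -0.13 in total RNA without LY6C total library 2 (10 of 42 positive) and -0.16 in polysomal RNA without LY6C polysomal library 6 (9 of 42 positive). Psmb5 was an example, at 18.5, 19.1 and 26.6 CPM in LY6G and 21, 43.2 and 52.2 CPM in LY6C polysomal libraries, with the LY6G library below the LY6C library of the same number in all 3 pairs.

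The libraries numbered 6 held the highest immunoproteasome values. All 5 genes were highest of the 3 libraries in number 6 of LY6G polysomal, LY6C polysomal and LY6C total RNA, and 4 of 5 in LY6G total RNA. The median log2 difference of library 6 from the mean of the other 2 was 0.78 in LY6G polysomal, 1.28 in LY6C polysomal RNA for these 5 genes, and 0.44 in LY6G and 0.42 in LY6C total RNA. The 37 other proteasome genes gave 0.24, 0.32, -0.27 and -0.27 in the same groups, with 26, 24, 5 and 3 of 37 highest in library 6, beside 40.3%, 36.9%, 43.1% and 34.2% of all genes. Psmb10 went furthest, at 125 CPM in LY6C polysomal library 6 beside 19.1 and 22.4 CPM in libraries 2 and 3. The 22 class I presentation genes moved along, with 19 of 22 highest in library 6 of LY6G polysomal and 18 of 22 of LY6C polysomal RNA, and summed to 1422, 1666 and 3545 CPM in LY6G and 1837, 1731 and 8227 CPM in LY6C polysomal libraries, against 1088, 1218 and 1078 CPM in marrow. The megakaryocyte gene Pf4 also had its highest value there, at 49.9, 44.7 and 199 CPM in LY6G and 30.0, 11.9 and 315 CPM in LY6C polysomal libraries. The megakaryocyte markers summed to 12.0 to 342 CPM in sorted libraries and 69.9 to 188 CPM in marrow. Of the other markers, Itga2b had 1.26, 0.559 and 4.32 CPM in LY6G and 0.915, 1.12 and 2.71 CPM in LY6C polysomal libraries. Its marrow polysomal values were 118, 80.4 and 115 CPM. Ppbp had 9.78, 7.15 and 18.9 CPM in LY6G and 5.55, 1.19 and 24.8 CPM in LY6C, against 39.1, 17.9 and 24.9 CPM in marrow. Gp9 reached at most 0.100 CPM in sorted polysomal libraries, against 7.13, 3.47 and 7.73 CPM in marrow. The part of these markers in the library 6 values was not tested.

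**Figure D4:**
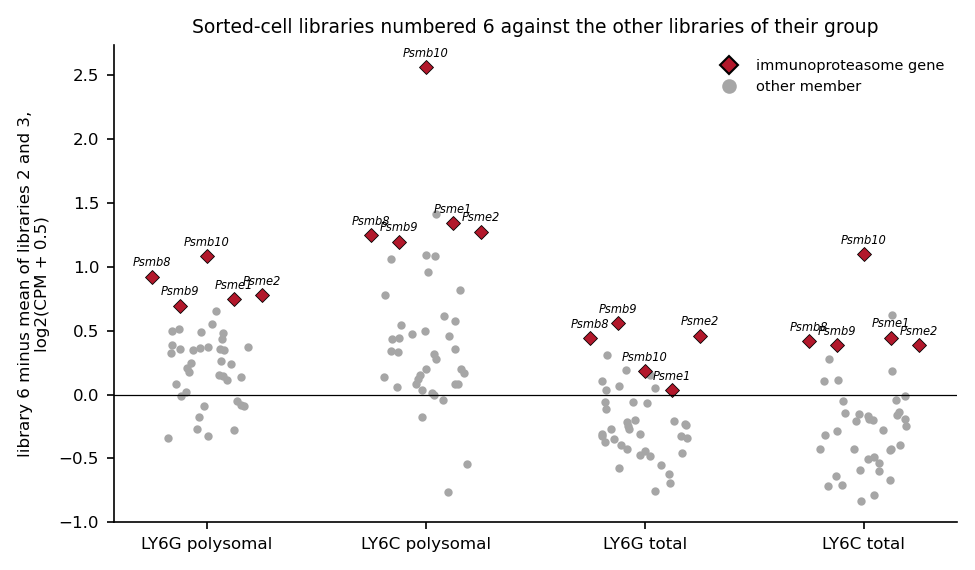
Log2 difference of the library numbered 6 from the mean of the other 2 libraries of its group, for the immunoproteasome genes and the other tested proteasome genes, in the 2 polysomal and the 2 total groups of sorted cells. The immune genes have medians of 0.78 and 1.28 in LY6G and LY6C polysomal RNA, and the others 0.24 and 0.32.

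The polysomal minus total difference compares the scaled level of each mRNA in the heavy polysomal fractions with that in total RNA. It is relative to the other genes and does not give the fraction of an mRNA on ribosomes. Within sorted cells most proteasome genes had a positive difference and none passed the test, with 0 of 42 called in LY6G and in LY6C beside 0% of all genes. At an unadjusted p under 0.05, edgeR gave 0 of 42 in LY6G and 6 of 42 in LY6C, beside 254 and 433 of all genes, and DESeq2 gave 0 calls with 1 and 5 at that level. The number of positive differences was 41 of 42 in LY6G and 39 of 42 in LY6C, with medians of 0.41 and 0.51 beside 0.00 and 0.01 over all genes. The shares of all genes and of better expressed coding genes that were positive are given by pair below. Fits with the library number as a block, which pairs polysomal and total RNA of the sorted cells, also gave 0 calls. At an unadjusted p under 0.05, the block fitted to the compared libraries only gave 28 of 42 proteasome genes in LY6G, beside 3227 of 13548 genes, and 19 of 41 in LY6C, beside 1625 of 11745 genes. The block over all libraries gave 4 of 42 in LY6G and 18 of 42 in LY6C, beside 667 and 1053 of 14181 genes.

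By pair, the median of the 42 genes was 0.23, 0.23 and 0.73 in LY6G libraries 2, 3 and 6 and 0.17, 0.32 and 0.93 in LY6C libraries 2, 3 and 6, while all genes tested stayed within -0.03 and 0.06. Coding genes with a mean of at least 10 CPM had medians of 0.06, 0.09 and 0.11 in LY6G and 0.08, 0.10 and 0.12 in LY6C. The median was positive in every pair, and without the libraries numbered 6 the medians were 0.24 in LY6G and 0.25 in LY6C. The immune genes were positive in 5 of 5 cases in each sorted pair. So were 34, 35 and 34 of the 37 others in LY6G and 32, 33 and 34 in LY6C. Of all genes tested, 47.1% to 57.4% were positive in a sorted pair. Of coding genes with a mean of at least 10 CPM, 57.4% to 70% were. Psmb10 gave 0.36, 0.43 and 1.29 in LY6G and 0.28, 0.60 and 1.90 in LY6C, Psmb8 gave 0.35, 0.11 and 0.71 in LY6G and 0.22, 0.52 and 1.2 in LY6C, and the constitutive Psmb5 gave 0.39, 0.39 and 1.19 in LY6G and 0.25, 0.47 and 1.56 in LY6C. Psmd8 was negative in every sorted pair, at -0.13, -0.21 and -0.29 in LY6G and -0.16, -0.12 and -0.051 in LY6C. Psme4 had both signs, at -0.02, 0.14 and 0.12 in LY6G and 0.05, -0.01 and -0.59 in LY6C.

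**Figure D5:**
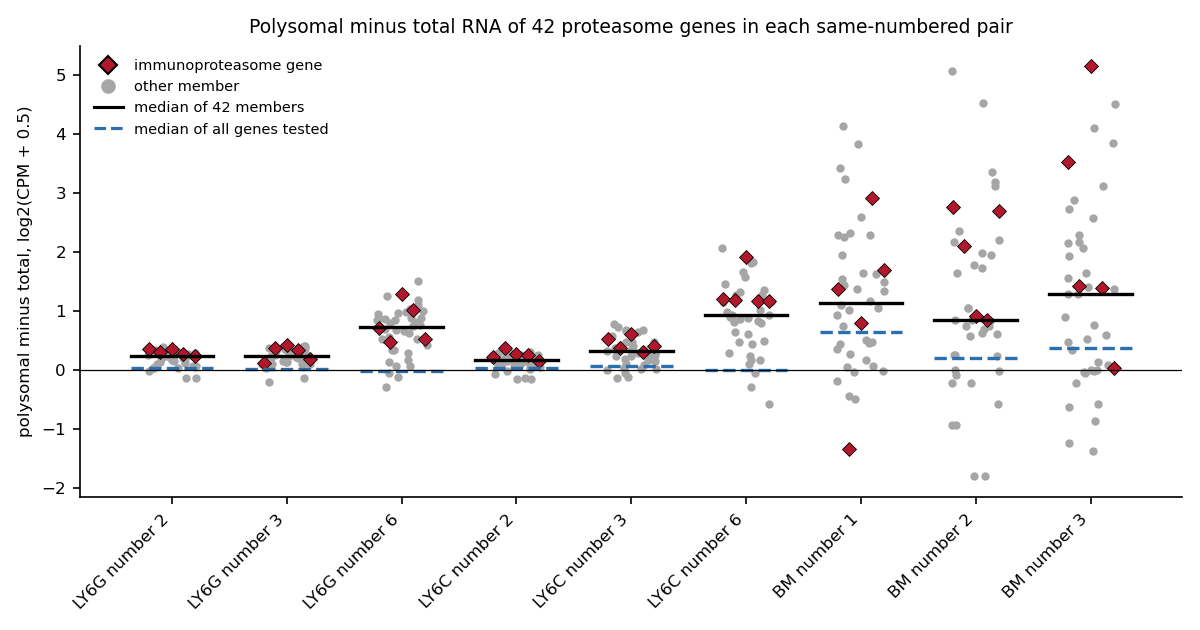
Polysomal minus total log2 difference of the tested proteasome genes in each pair of libraries, with LY6G and LY6C pairs left of marrow pairs; points are genes, diamonds the immunoproteasome genes, solid lines the median of the 42 genes and dashed lines that of all genes tested. The sorted medians lie between 0.17 and 0.93, and marrow medians between 0.84 and 1.28. Coding genes with a mean of at least 10 CPM have marrow medians of 0.73, 0.55 and 0.62.

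In marrow, 6 of 42 genes were higher in polysomal than in total RNA and none was lower, beside 2.6% and 0.797% of all genes. These were Psma2, Psma3, Psmb1, Psmb3, Psmd6 and Psmd11. Psma2 had 65.9, 23.7 and 21.8 CPM in polysomal against 10.6, 6.55 and 2.07 CPM in total RNA (2.55 ± 0.55, adjusted p = 0.0164), Psmb1 differed by 2.15 ± 0.53 and Psmb3 by 1.99 ± 0.52. Psmd11 differed by 1.46 ± 0.36. Psma3 was at least 2.63-fold higher against a floor of 3 counts, and Psmd6, on 3 counts in total RNA, had a ratio of 5.95 (95% interval 1.97 to 29.4). None of these calls survived leaving out either marrow total library 2 or marrow polysomal library 1, each of which gave 0 of 42, and 2 remained without marrow total library 3. DESeq2 gave 1 call and median-ratio scaling 0. The differences between kinds of cells in polysomal minus total were not called for any proteasome gene. These were 0 of 42 for LY6G minus LY6C (0% of all genes), LY6G minus marrow (0.416%) and LY6C minus marrow (0.338%). At an unadjusted p under 0.05 edgeR gave 0, 7 and 6, and DESeq2 gave 0, 6 and 4; without marrow total library 1 the LY6C minus marrow count was 1.

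Genes that act with the proteasome were followed by list in polysomal RNA. Over all genes 22.1% were higher and 15.3% lower in LY6G, and 20.2% higher and 11.2% lower in LY6C, as above. Of 7 assembly factors, 2 were higher in each kind against marrow: Ecpas, which disassembles stressed proteasomes, by 1.6 ± 0.36 and 1.59 ± 0.36, and Psmg4. Psmg4 had 0, 2 and 0 counts in the marrow polysomal libraries and lost its call in 8 of 15 alternatives for LY6G and 10 of 15 for LY6C, the fit without the libraries numbered 6 among them. Of 20 associated and regulatory genes, 8 were higher and 2 lower in LY6G, and 8 higher and 0 lower in LY6C. Without the libraries numbered 6 there were 6 higher and 2 lower in LY6G, with Nfe2l1 and Ubr4 no longer called, and 5 higher in LY6C, with Adrm1, Txnl1 and Ubr4 no longer called. Usp14, a deubiquitinase of the regulatory particle, had 19.7, 22.7 and 14.5 CPM in LY6G and 20.6, 28.0 and 25.3 CPM in LY6C, against 5.42, 4.63 and 6.32 CPM in marrow, and was higher by 1.78 ± 0.34 and 2.16 ± 0.34. The ubiquitin shuttle Ubqln1 was higher by 1.87 ± 0.36 and 1.79 ± 0.36, and Zfand5, which activates the proteasome, by 2.03 ± 0.33 and 1.94 ± 0.33. Nfe2l1, the factor that raises proteasome genes when the particle fails, had 42.2, 43.8 and 85.3 CPM in LY6G against 24.2, 35.8 and 36.9 CPM in marrow and was higher by 0.82 ± 0.31 (adjusted p = 0.0407). Library 6 held the highest of these values, the difference was 0.30 (adjusted p = 0.464) without the libraries of that number, and the call was lost in 11 of 15 alternatives. Of 6 ubiquitin and activating enzyme genes, 2 were higher and 1 lower in LY6G and 3 higher in LY6C, and 1 higher and 1 lower in LY6G and 2 higher in LY6C without those libraries.

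Among 22 class I presentation genes, 6 were higher and 1 lower in LY6G, and 12 were higher and 1 lower in LY6C. Without the libraries numbered 6 there were 5 higher and 2 lower in LY6G and 4 higher and 2 lower in LY6C. Erap1, the aminopeptidase that trims peptides in the endoplasmic reticulum, had 19.5, 22.5 and 24.0 CPM in LY6G and 24.2, 17.1 and 17.2 CPM in LY6C, against 0.285, 1.73 and 2.46 CPM in marrow, and was higher by 3.97 ± 0.56 and 3.79 ± 0.56. Pdia3, of the loading complex, had 107, 134 and 150 CPM in LY6G and 133, 179 and 370 CPM in LY6C, against 22.3, 22 and 22.1 CPM in marrow. Irf8, a factor of the monocyte lineage, was lower, with differences of -1.40 ± 0.50 and -1.58 ± 0.51. It had 7.82, 10.6 and 22.2 CPM in LY6G and 9.85, 7.24 and 19.0 CPM in LY6C, against 31.4, 46.3 and 30.2 CPM in marrow. The call of Irf8 was lost in 7 of 15 alternatives for LY6G, DESeq2 among them, and in 3 of 15 for LY6C. Both calls held without the libraries numbered 6 (-2.07 and -2.21). Tap1, the peptide transporter that overlaps Psmb9 on the opposite strand, had 45.1, 58.7 and 109 CPM in LY6G and 56.2, 63.1 and 338 CPM in LY6C, against 24.2, 38.2 and 38.3 CPM in marrow, and was called in LY6C at 2.19 ± 0.65. Without the libraries numbered 6 that difference was 0.67 (adjusted p = 0.194), and it lost its call in 4 of 15 alternatives. B2m, the class I light chain, had 121, 121 and 387 CPM in LY6G and 211, 100 and 1639.7 CPM in LY6C, against 78.2, 91.9 and 49.9 CPM in marrow, and was called in LY6C at 3.15 ± 0.88, where library 6 was the highest. Without the libraries numbered 6 the LY6C difference of B2m was 0.95 (adjusted p = 0.164).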

How the data were processed

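The deposited table holds raw counts per gene for 18 libraries; per the submitters' processing notes reads were checked with FastQC, aligned with STAR 2.5.2a to GRCm38 (mm10) and analysed with DESeq2 and DESeq. The counting program, annotation and strand setting are not given in the sources used here; where genes overlap (14 of the proteasome genes, 3 of them on the same strand), their reads cannot be told apart. Per the labels, the 3 libraries of a group are independent biological replicates. Identifiers were matched to GENCODE (54809 of 54838 rows). edgeR 4.0.16 (R 4.3.3) fitted all 18 libraries with 6 group means, TMM factors, filterByExpr (minimum count 10) and a robust quasi-likelihood F test, with Benjamini-Hochberg adjustment over 14181 genes and calls at adjusted p under 0.05; an SE is the log2 difference over the root of F. CPM use TMM-scaled library sizes, and pair differences add 0.5 CPM. Code was tested on simulated data. Figures were drawn with matplotlib 3.10.9 and tables with pandas 2.3.3 (Python 3.11.15).

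Samples were grouped by their titles, and 12 comparisons were made. Library numbers 2, 3 and 6 of the labels pair the sorted libraries: deviations from group means of polysomal and total RNA correlated at 0.66, 0.80 and 0.74 in LY6G and 0.80, 0.91 and 0.74 in LY6C, and of LY6G and LY6C at 0.32, 0.55 and 0.60 in polysomal and 0.55, 0.57 and 0.72 in total RNA. Marrow numbers gave 0.23, 0.07 and 0.11 and were not taken as pairs in the analysis reported. The replicate blocks among the alternatives did use them, and joined marrow libraries 2 and 3 with sorted libraries of those numbers. Deviations of sorted and marrow libraries of 1 number correlated at -0.074 to 0.0093. In comparisons with marrow the block therefore stands for no known pairing. Alternatives were median-ratio factors, other filters, scaling on coding genes, fits of the compared libraries only, replicate blocks, DESeq2 1.42.0 and leaving out each library; leaving out the libraries numbered 6 was added after seeing the data.

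The genes, lists and tests were chosen with earlier results of these data known. Named genes were the catalytic and immune subunits and activators whatever their values, and in each comparison up to 4 called rises and falls of at least 10 CPM with no overlap between groups; related genes followed the same rule. Psma1, Psma2, Psma5, Psma4, Psmb2, Psmb3, Psmb4, Psmc4, Psmd6, Psmd1, Psmg4, Nfe2l1, Ubr4, Adrm1, Txnl1, Tap1 and Pf4 were named after their values were seen.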

Additional observations from a re-analysis of the deposited data

How the results depend on the processing

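Of 74 called differences of proteasome genes, 27 kept their call in every alternative, 47 lost it in at least 1 and 0 reversed; Psma3, Psma6, Psmb8, Psmd1, Psmd2, Psmd5, Psmd8, Psme2 and Psme4 kept it in polysomal RNA of both kinds, and none of the 6 marrow calls of polysomal minus total RNA did. Of 90 called related-gene differences, 30 kept their call in every alternative. Of 9 uncalled differences that were printed, 4 reversed in at least 1 alternative and 6 gained a call in at least 1. Marrow total RNA had a median of 3 to 4.5 counts a proteasome gene.

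With only the compared libraries in the fit, called genes numbered 9 in LY6G and 5 in LY6C total RNA against marrow, and 0 in marrow polysomal minus total RNA; with the replicate block added they numbered 5, 3 and 1, and 13 in LY6C polysomal RNA against marrow. DESeq2 called 24 in LY6G polysomal RNA and 1 in marrow polysomal minus total RNA, where median-ratio factors gave 0, no filter gave 3 and leaving out the libraries numbered 6 gave 1. DESeq2's share of all genes is not given beside its counts. The cause of these shifts was not tested, beyond the fewer libraries that some fits hold. Leaving out 1 library at a time gave 10 to 16 calls for LY6G total, 11 to 17 for LY6C total, 12 to 15 for LY6G polysomal and 12 to 18 for LY6C polysomal RNA (12 without marrow polysomal library 3). It gave 0 to 7 for marrow polysomal minus total RNA, 0 to 1 for LY6C minus marrow in that difference, and 0 in the other comparisons. Without the libraries numbered 6, Psmb10 turned to -0.26 in LY6G and -0.022 in LY6C polysomal RNA. Leaving out 1 library at a time, Psmb10 in LY6G ranged from -0.12 (without LY6G polysomal library 6) to 0.66, Psmb5 in LY6G from -1.10 to 0.051 and Psmb7 in LY6G from -1.10 to 0.052, both highest without marrow polysomal library 1. The replicate block over all libraries put Psmb7 in LY6G at 0.057. In all comparisons with marrow the blocks joined marrow and sorted libraries by number alone. The replicate block changed no call between sorted groups or between fractions of sorted cells, where 0 genes were called under it.

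Median-ratio factors moved the median of all genes in LY6C against marrow total RNA to 1.36, beside 1.64 in the analysis reported. In LY6G against marrow polysomal RNA they moved it to 0.68, beside 0.45.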
